A study of Mus musculus with 17 samples.

Results

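The Polycomb genes described here are Ezh1, Ezh2, Eed, Suz12, Bmi1, Cbx2, Cbx7, Cbx8 and Phc1, read by mRNA array in mouse blood stem and progenitor cells. They were found by taking every non-control probe that the newer scanner files assign to one of these gene names, which gave 15 probes for 9 genes, out of 41174 probes and 28090 gene names on the array. Ezh1, Ezh2, Eed and Cbx7 had 1 probe each, Suz12, Bmi1, Cbx2 and Cbx8 had 2, and Phc1 had 3. The probe of a gene with the highest mean over all arrays is called its lead probe.

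Polycomb proteins keep genes silent through chromatin. Polycomb repressive complex 2 (PRC2) methylates lysine 27 of histone H3, with EZH1 or EZH2 as the enzyme and EED and SUZ12 as core partners, and Polycomb repressive complex 1 (PRC1) ubiquitinates histone H2A and compacts chromatin, with a RING enzyme, a PCGF protein such as BMI1, a chromodomain protein of the CBX family that reads the H3 mark, and a polyhomeotic protein such as PHC1. In blood, Bmi1 is known as a gene that stem cells need in order to self-renew, and exchange of CBX proteins within PRC1 is known to shift the balance between self-renewal and differentiation.

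The study sorted 6 populations from the bone marrow of untreated female C57Bl/6 mice aged 6 to 8 weeks, with 10 to 20 mice pooled per replicate by the methods. All were lineage negative and c-kit positive. Long-term stem cells (LT-HSC) were Sca1+ CD34- FLT3-, short-term stem cells (ST-HSC) Sca1+ CD34+ FLT3- and multipotent progenitors (MPP) Sca1+ CD34+ FLT3+, and these are together the HSC subsets. Common myeloid progenitors (CMP), granulocyte-macrophage progenitors (GMP) and megakaryocyte-erythroid progenitors (MEP) were Sca1- and were split by CD34 and Fc gamma receptor, with CMP intermediate for both, GMP positive for both and MEP negative for both. LT-HSC had 2 arrays and each other population had 3. The label of 1 LT-HSC array says that it pools replicates 2 and 3 (the LT-HSC pool below), and every population has 1 array without a number, called unnumbered here.

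Scanning took place in 3 runs. In run 1 were replicates 1 and 2 of CMP, GMP and MEP, in run 3 both LT-HSC arrays and replicates 2 and 3 of ST-HSC and MPP, and in run 2 the 5 unnumbered arrays of the other populations. Run and population therefore cannot be told apart outside run 2 in a comparison of HSC subsets with myeloid populations, and the value of run 2 alone is given beside most such results for the members. The arrays of run 2 lay on 2 slides scanned on different days, GMP, CMP and MPP on 1 and MEP and ST-HSC on the other, so a run 2 value for GMP or CMP against MEP, or for ST-HSC against MPP, also crosses slide and day. In run 1 each of 2 slides held CMP, GMP and MEP. HSC subsets and myeloid progenitors were also sorted separately by the study's account, so sort and this comparison cannot be told apart in any run. By the scanner software 41.4% to 70.1% of spots per array stood well above background. The unnumbered LT-HSC array was the dim one, its 75th percentile of intensity being 53.1 where the others had 243 or more. The 6 HSC markers averaged 9.53 in LT-HSC and 4.79 in MEP on the normalized log2 scale, the 5 GMP markers on the array were highest in GMP at 15.41, and the 6 MEP markers were highest in MEP at 12.10. Markers of mature cells moved with the populations as well. The 4 T cell markers averaged 7.46 in LT-HSC and 4.10 in GMP, all 4 being higher in HSC subsets, and 3 of 4 B cell, 2 of 4 mature neutrophil and 2 of 4 mature erythroid markers were also higher there. Between myeloid populations all 4 mature erythroid markers were higher in MEP than in CMP and GMP, with list means of 11.45 in MEP, 8.1 in CMP and 7.01 in GMP, so they move with each result below that sets MEP against these 2. Their part in the results was not tested. In sorted bulk samples, fewer cells expressing a gene and less RNA per cell cannot be told apart. The p-values measure the spread between these pooled samples. For the gene pairs, tested by permutation, they also take in the spread between the populations of each side.

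The sequences of 6 probes are printed, and results below turn on the last 4. The probes of Ezh2 and Eed are the only ones that cross an exon junction, since their 60 bases span 896 and 2910 bases of the genome. The other 4 are the upstream probes of Suz12, Bmi1, Cbx2 and Phc1, which lie nearer the start of the transcript than the lead probes of those genes. All are written 5′ to 3′ in lower case, with no base singled out.
Ezh2: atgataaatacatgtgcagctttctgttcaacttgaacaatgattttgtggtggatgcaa
Eed: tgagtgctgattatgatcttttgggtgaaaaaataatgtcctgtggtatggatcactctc
Suz12 upstream: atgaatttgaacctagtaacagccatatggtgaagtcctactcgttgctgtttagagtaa
Bmi1 upstream: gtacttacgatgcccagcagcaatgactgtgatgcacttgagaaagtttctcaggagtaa
Cbx2 upstream: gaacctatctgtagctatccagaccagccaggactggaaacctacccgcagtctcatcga
Phc1 upstream: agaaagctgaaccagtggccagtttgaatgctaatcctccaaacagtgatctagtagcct
In build mm9, as the scanner files give it, the Ezh2 probe lies at chr6:47482047-47482942 on the minus strand and the Eed probe at chr7:97113321-97116230 on the minus strand. The Suz12 upstream probe lies at chr11:79826978-79827037 on the plus strand, 3075 transcript bases before the lead probe at chr11:79847251-79847310. The Bmi1 upstream probe lies at chr2:18605306-18605365 on the plus strand, 2374 transcript bases before the lead probe at chr2:18607987-18608046. The Cbx2 upstream probe lies at chr11:118890328-118890387 on the plus strand, 2035 transcript bases before the lead probe at chr11:118892363-118892422. The Phc1 upstream probe lies at chr6:122272042-122272101 on the minus strand, 1127 transcript bases before the lead probe at chr6:122268298-122268357. The remaining lead probes were those of Ezh1 at chr11:101053137-101053196, Cbx7 at chr15:79746268-79746327 and Cbx8 at chr11:118897653-118897712, all on the minus strand.

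In the F-test of limma for any difference among the 6 population means, 12 of 15 member probes passed an adjusted p of 0.05, where 40.6% of all probes did, and none reached the unadjusted 1e-06 of the study's methods. When run was a block, 7 of the 15 passed, where 36.7% of all probes did. Phc1 and Cbx2 had the lowest adjusted p, at 3.55e-05 and 0.000108 for their lead probes. The exceptions were Ezh2 at 0.0512, the lead probe of Suz12 at 0.387 and the upstream probe of Cbx2 at 0.0898. Along the order of population means, no 2 neighbouring populations differed at an adjusted p under 0.05 in limma for any of the 9 lead probes, so the orders given below have no called step between neighbours in that fit. With run as a block 3 of 45 neighbouring pairs were called, MEP above GMP (0.48, adjusted p = 0.00987) and CMP above MEP (0.53, adjusted p = 0.00534) for Phc1, and MEP above LT-HSC for Eed (0.79, adjusted p = 0.0248).

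**Figure D1:**
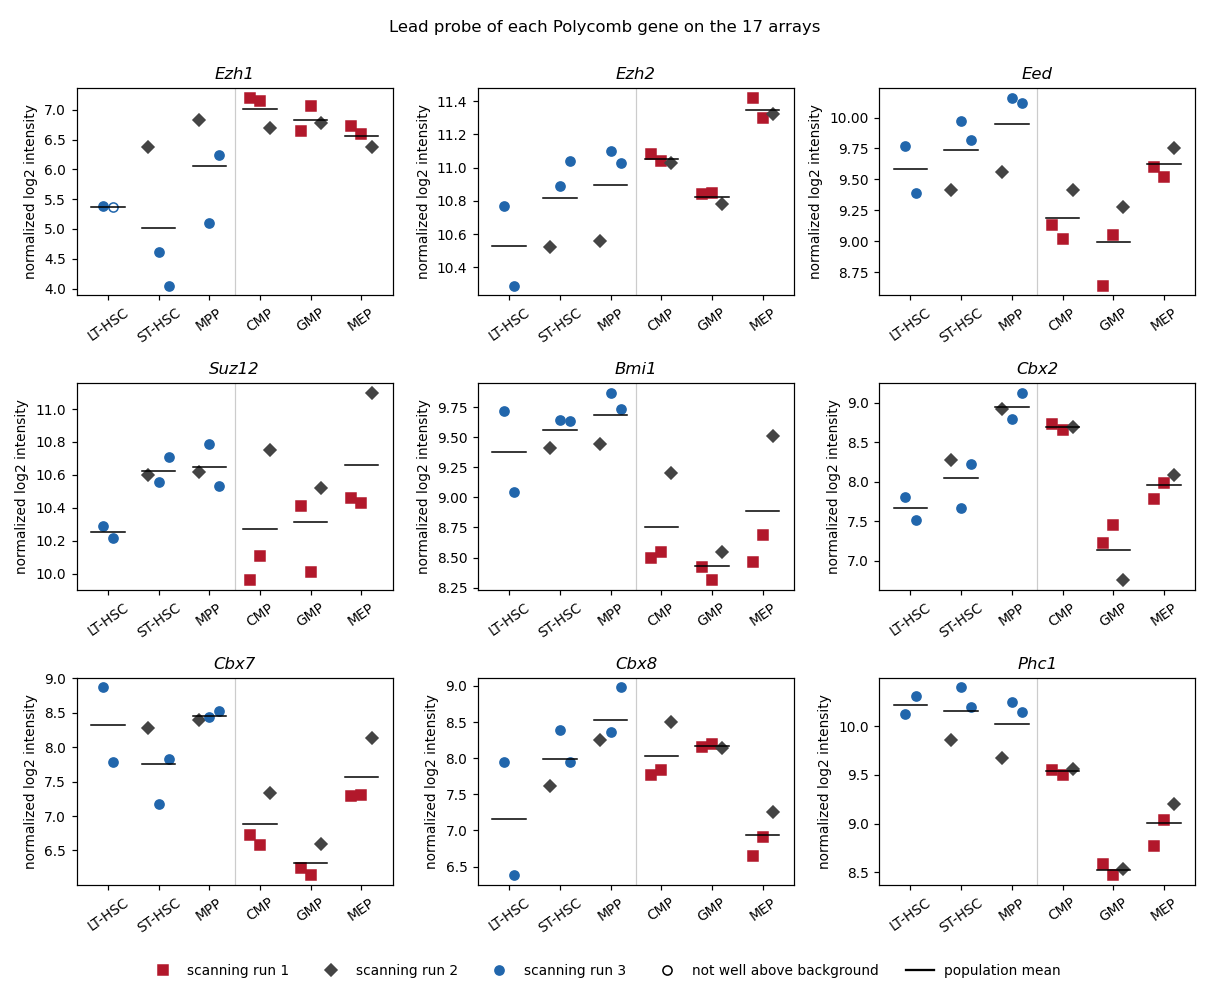
Normalized log2 intensity (vertical axis, own scale per panel) of the lead probe of each gene on every array, by population, with the scanning run as colour and shape and the population mean as a line. Phc1 sits between 9.67 and 10.40 on the arrays of HSC subsets and between 8.47 and 9.56 on the myeloid arrays, and Cbx2 is lowest in GMP.

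Ezh1 encodes the PRC2 enzyme that is typical of resting cells. Its normalized log2 intensity was 5.38 and 5.36 in LT-HSC, the second not well above background, 4.62, 4.05 and 6.37 in ST-HSC and 5.10, 6.24 and 6.82 in MPP. In the myeloid populations it was 7.20, 7.14 and 6.69 in CMP, 6.64, 7.07 and 6.78 in GMP, and 6.73, 6.59 and 6.37 in MEP. The 6.37 of ST-HSC and the 6.82 of MPP were the unnumbered arrays, scanned with myeloid arrays in run 2, and they overlapped the myeloid range while the 6 arrays of run 3 lay below it. Over all arrays Ezh1 was lower in HSC subsets by a log2 difference of -1.32 ± 0.30 (SE), 2.5-fold, with an adjusted p of 0.00335 in limma. In run 2 alone the difference was -0.02, with means of 6.6 over 2 arrays and 6.61 over 3, and with run as a block the sign turned, at 0.10 (adjusted p = 0.903). The F-test call was lost without any 1 of ST-HSC 2, ST-HSC 3, the unnumbered LT-HSC array, CMP 1, CMP 2 or GMP 2, with an adjusted p of up to 0.0839.

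Ezh2 encodes the PRC2 enzyme that is typical of dividing cells, and it was highest in MEP. Values were 10.77 and 10.29 in LT-HSC, 10.89, 11.04 and 10.52 in ST-HSC and 11.10, 11.03 and 10.56 in MPP. They were 11.08, 11.04 and 11.03 in CMP, 10.84, 10.85 and 10.78 in GMP, and 11.42, 11.30 and 11.32 in MEP. All 3 MEP arrays lay above all 14 others, although the F-test over the populations was not passed. It was passed without any 1 of the LT-HSC pool, ST-HSC 3 or the unnumbered ST-HSC or MPP array, with an adjusted p down to 0.0246. The mean of MEP, 11.35 ± 0.06 (SD, n = 3), was above LT-HSC by 0.82 (adjusted p = 0.0072 in limma) and above ST-HSC by 0.53 (adjusted p = 0.0398), and above GMP by 0.53 with an adjusted p of 0.0649, which became 0.00684 with run as a block. The difference from GMP passed without either LT-HSC array or the unnumbered ST-HSC or MPP array, with an adjusted p down to 0.0377. The excess over GMP was 0.52 within run 1 and 0.54 within run 2. HSC subsets as a whole were lower than myeloid populations by 0.33 ± 0.11 (SE), 1.25-fold, with an adjusted p of 0.028. Here run 2 gave a larger difference, -0.50, with no overlap, and the run block gave -0.66 (adjusted p = 0.0109). That call did not hold without both LT-HSC arrays, at -0.22 (adjusted p = 0.13), without the unnumbered LT-HSC array, at -0.25, or without MEP 1, at -0.31.

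The 2 enzymes were set against each other within each array, which asks whether the 2 changed alike and does not compare their levels. Ezh1 minus Ezh2 had a mean of -5.28 ± 1.10 (SD, n = 8) over HSC subsets, against -4.27 ± 0.42 (SD, n = 9) over myeloid populations, and the values overlapped. The difference of -1.01 had an exact two-sided permutation p of 0.0206 over 24310 orders, or 0.0413 adjusted over the 2 gene pairs tested. With run as a block the permutation stays within runs and rests on run 2 alone, with 2 against 3 arrays. The difference there turned to 0.48 (adjusted p = 0.4), with too few arrays for any outcome to pass the threshold. It also missed the threshold with 75th-percentile scaling (-0.39), normexp (-0.25) and the authors' table (-0.54), and without any 1 of ST-HSC 3, MPP 2, the LT-HSC pool, the 3 CMP arrays or the 3 GMP arrays (adjusted p up to 0.0786).

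Eed, the PRC2 subunit that binds the methylated histone, was highest in MPP and lowest in GMP by its means over all arrays. In run 2 MEP, at 9.75, lay above MPP, at 9.56. Values were 9.77 and 9.39 in LT-HSC, 9.97, 9.82 and 9.41 in ST-HSC and 10.16, 10.12 and 9.56 in MPP. They were 9.13, 9.02 and 9.41 in CMP, 8.64, 9.05 and 9.28 in GMP, and 9.60, 9.52 and 9.75 in MEP. The MEP arrays lay inside the range of the HSC subsets, while the run 1 arrays of CMP and all 3 GMP arrays lay below it. HSC subsets were higher by 0.49 ± 0.13 (SE), 1.4-fold, with an adjusted p of 0.0108 in limma, but run 2 alone gave means of 9.48 on both sides, and the run block gave -0.15 (adjusted p = 0.627). MPP exceeded CMP by 0.76 ± 0.22 (SE) with an adjusted p of 0.0435, against 0.15 in run 2 and 0.19 (adjusted p = 0.79) with the run block, and this call was lost without any 1 of MPP 2, MPP 3, CMP 1, CMP 2, ST-HSC 3, MEP 1, MEP 2 or GMP 2 (adjusted p up to 0.174). The F-test call was lost without any 1 of MPP 2, MPP 3, CMP 1, CMP 2, GMP 1 or GMP 2 (adjusted p up to 0.0663). Within the myeloid branch GMP was below MEP by 0.63 (adjusted p = 0.0748), by 0.71 in run 1 and 0.47 in run 2, and with run as a block the adjusted p was 0.00445.

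Suz12, the PRC2 subunit that holds the complex together, was read differently by its 2 probes. The lead probe was at 10.29 and 10.22 in LT-HSC, 10.56, 10.71 and 10.60 in ST-HSC and 10.79, 10.53 and 10.62 in MPP. On myeloid arrays it was at 9.96, 10.11 and 10.75 in CMP, 10.41, 10.01 and 10.52 in GMP, and 10.46, 10.43 and 11.10 in MEP. HSC subsets and myeloid populations overlapped throughout, with a difference of 0.09 ± 0.14 (SE) and an adjusted p of 0.63, or -0.31 (adjusted p = 0.245) with the run block. The upstream probe was at 6.55 and 7.45 in LT-HSC, 6.91, 6.70 and 6.72 in ST-HSC and 6.79, 6.53 and 6.86 in MPP. Myeloid arrays had 7.78, 7.66 and 7.28 in CMP, 8.21, 7.85 and 7.55 in GMP, and 8.21, 8.21 and 7.78 in MEP. Apart from the dim unnumbered LT-HSC array at 7.45, every array of HSC subsets lay below every myeloid array. The upstream probe was lower in HSC subsets by 1.0 ± 0.15 (SE), 2.00-fold, with an adjusted p of 0.000118, and by 0.75 in run 2 with no overlap, against -0.18 for the lead probe there. With run as a block it was at -0.66 (adjusted p = 0.0909). In the single step from MPP to CMP the upstream probe was lower in MPP by 0.85 ± 0.24 (SE) with an adjusted p of 0.0396, and by 0.42 in run 2, but the run block ended the call, at -0.51 (adjusted p = 0.425).

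Among PRC1 genes, Bmi1 was higher in HSC subsets by its lead probe. It was at 9.72 and 9.04 in LT-HSC, 9.64, 9.63 and 9.41 in ST-HSC and 9.87, 9.73 and 9.44 in MPP. It was at 8.50, 8.55 and 9.20 in CMP, 8.42, 8.31 and 8.55 in GMP, and 8.46, 8.69 and 9.51 in MEP. All GMP arrays lay below every array of HSC subsets, while the unnumbered CMP and MEP arrays overlapped them. The difference between HSC subsets and myeloid populations was 0.85 ± 0.17 (SE), 1.81-fold, with an adjusted p of 0.00106. Run 2 alone gave 0.34, and the run block 0.23 (adjusted p = 0.571). The mean of both Bmi1 probes gave 0.14 (adjusted p = 0.394), and 0.31 (adjusted p = 0.381) for MPP against CMP. MPP exceeded CMP by 0.93 ± 0.28 (SE) with an adjusted p of 0.0445, against 0.25 in run 2 and 0.34 (adjusted p = 0.654) with the run block. That call was lost without any 1 of MPP 2, MPP 3, CMP 1, CMP 2, ST-HSC 2, ST-HSC 3, GMP 1, GMP 2, the unnumbered GMP array or MEP 2 (adjusted p up to 0.167). The upstream probe of Bmi1 ran the other way at a low level, between 4.42 and 5.38 in HSC subsets and between 5.12 and 6.13 in myeloid populations. It was lower in HSC subsets by 0.57 ± 0.14 (SE) with an adjusted p of 0.00536, and by 0.33 in run 2, but the run block gave -0.39 (adjusted p = 0.398). It was also lower in GMP than in MEP by 0.75 ± 0.23 (SE), adjusted p 0.0393, by 0.81 in run 1 and 0.64 in run 2.

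Cbx2, a chromodomain subunit of PRC1, peaked at the MPP and CMP stages. Its lead probe was at 7.81 and 7.52 in LT-HSC, 7.67, 8.22 and 8.27 in ST-HSC and 8.80, 9.13 and 8.92 in MPP. It was at 8.73, 8.66 and 8.69 in CMP, 7.22, 7.45 and 6.75 in GMP, and 7.78, 7.99 and 8.09 in MEP. The 6 arrays of MPP and CMP lay above the other 11, and the GMP arrays lay below all others. This was the only gene called in each of the single steps from ST-HSC to MPP and among CMP, GMP and MEP. ST-HSC was below MPP by 0.90 ± 0.20 (SE), 1.86-fold, adjusted p 0.0392 in limma, and by 0.65 in run 2 and 1.02 in run 3. With the replicate number as a block the size was the same but the adjusted p was 0.0668. CMP was above GMP by 1.56 ± 0.20 (SE), 2.94-fold, adjusted p 0.000554, with 1.37 in run 1 and 1.94 in run 2. CMP was above MEP by 0.74 (adjusted p = 0.0225), with 0.82 in run 1 and 0.60 in run 2, and GMP was below MEP by 0.81 (adjusted p = 0.0121), with 0.55 in run 1 and 1.34 in run 2. Across HSC subsets and myeloid populations as wholes the lead probe did not pass, at 0.29 ± 0.12 (SE) with an adjusted p of 0.0707, and a 95% interval of 0.03 to 0.56, and it passed without ST-HSC 2 or GMP 2 (adjusted p down to 0.0248). Without both LT-HSC arrays it also passed, at 0.58 (adjusted p = 0.00442), while run 2 alone gave 0.75 with overlap and the run block 0.49 (adjusted p = 0.211). The step from ST-HSC to MPP lost its call without any 1 of ST-HSC 2, ST-HSC 3, any of the 3 MPP arrays, any of the 3 CMP arrays, GMP 1, MEP 1 or MEP 2 (differences of -1.0 to -0.71 over all arrays left out, adjusted p up to 0.172). CMP against MEP lost it without any 1 of the 3 CMP arrays, MEP 1 or MEP 2 (adjusted p up to 0.0902), and GMP against MEP without the unnumbered GMP array, at -0.61. The upstream probe was well above background on only 6 of 17 arrays, 5 of them HSC subsets, and was called lower in HSC subsets by 0.46 (adjusted p = 0.0475), with the opposite sign in run 2, at 0.21, and with the run block, at 0.12 (adjusted p = 0.849).

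Cbx7, the chromodomain subunit tied to stem cell self-renewal in mouse blood, had the largest difference between HSC subsets and myeloid populations among the lead probes whose call held with run as a block. It was at 8.87 and 7.78 in LT-HSC, 7.17, 7.83 and 8.28 in ST-HSC and 8.44, 8.53 and 8.39 in MPP. It was at 6.72, 6.58 and 7.34 in CMP, 6.24, 6.14 and 6.59 in GMP, and 7.29, 7.30 and 8.13 in MEP. Only the unnumbered CMP and the MEP arrays reached the range of the HSC subsets, whose lowest array was ST-HSC 2. The difference between HSC subsets and myeloid populations was 1.25 ± 0.21 (SE), 2.38-fold, with an adjusted p of 0.000307, it was 0.98 in run 2 with no overlap, and the run block gave 1.09 (adjusted p = 0.0479). MPP exceeded CMP by 1.57 ± 0.34 (SE), 2.97-fold, adjusted p 0.0118, and by 1.05 in run 2, where each had 1 array. That step lost its call with run as a block, at 1.37 (adjusted p = 0.0788), and without CMP 1 or CMP 2, at 1.5 and 1.43. GMP was below MEP by 1.25 ± 0.34 (SE), adjusted p 0.0215, by 1.11 in run 1 and 1.54 in run 2. This call was lost with normexp, at -0.66 (adjusted p = 0.0655), and without the unnumbered MEP array, GMP 1 or GMP 2, at -0.96, -1.20 and -1.15.

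Cbx8, a further chromodomain subunit, which is tied to differentiating progenitors, was lowest in MEP by its lead probe. The lead probe was at 7.94 and 6.38 in LT-HSC, 8.39, 7.94 and 7.62 in ST-HSC and 8.36, 8.98 and 8.25 in MPP. It was at 7.76, 7.84 and 8.50 in CMP, 8.15, 8.20 and 8.14 in GMP, and 6.65, 6.91 and 7.25 in MEP. Apart from the dim unnumbered LT-HSC array at 6.38, every other array lay above the MEP arrays. GMP exceeded MEP by 1.22 ± 0.36 (SE), 2.33-fold, with an adjusted p of 0.0314, by 1.39 in run 1 and 0.89 in run 2. The call was lost without any 1 of the 3 GMP arrays, MEP 1 or MEP 2 (differences of 1.07 to 1.36, adjusted p up to 0.115), and the F-test call without MEP 1 or MEP 2 (adjusted p up to 0.067). MPP exceeded MEP by 1.59 (adjusted p = 0.00405), and ST-HSC exceeded MEP by 1.04 (adjusted p = 0.0441). Both comparisons cross runs, and within run 2 the differences were smaller, with MPP at 8.25, ST-HSC at 7.62 and MEP at 7.25. The other probe of Cbx8, assigned to a different transcript record, moved with the lead probe over the arrays, with r of 0.77 over 17 arrays that share their normalization and runs. It was at 6.75, 7.32 and 7.22 in GMP and at 4.93, 6.12 and 6.34 in MEP, a difference of 1.3 that was not called (adjusted p = 0.0658). Its lowest population mean was that of LT-HSC, 5.04 against 5.8 in MEP. HSC subsets and myeloid populations did not differ at the threshold by either probe, at 0.18 (adjusted p = 0.546) and -0.53 (adjusted p = 0.137), and run 2 gave -0.03 for both. The lead probe was called higher in HSC subsets without both LT-HSC arrays, at 0.55 (adjusted p = 0.025), and stood at -0.45 (adjusted p = 0.536) with the run block.

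By their lead probes Cbx7 and Cbx8 moved in opposite directions between GMP and MEP, and each direction was the same in runs 1 and 2. Within an array, Cbx7 minus Cbx8 had a mean of 0.18 ± 0.82 (SD, n = 8) over HSC subsets, against -0.79 ± 1.12 (SD, n = 9) over myeloid populations. The difference of 0.97 did not pass, with an exact two-sided permutation p of 0.065, which is also its value adjusted over the 2 pairs. That test also takes in the spread between populations of a side, GMP being at -2.06 to -1.56 and MEP at 0.39 to 0.88. The difference changed to 1.3 (adjusted p = 0.0206) when all probes of each gene were averaged. It also passed without any 1 of ST-HSC 2 or the 3 MEP arrays, at 1.11 to 1.18. It did not pass with 75th-percentile scaling (0.97), normexp (0.51), the authors' table (0.70), the replicate block (0.93) or without both LT-HSC arrays (0.65). Within run 2 alone, with too few arrays to pass, it was 1.01.

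Phc1, a polyhomeotic subunit of PRC1, was higher in HSC subsets on every array by its lead probe. It was at 10.13 and 10.31 in LT-HSC, 10.40, 10.20 and 9.86 in ST-HSC and 10.25, 10.15 and 9.67 in MPP. It was at 9.55, 9.5 and 9.56 in CMP, 8.58, 8.47 and 8.53 in GMP, and 8.77, 9.04 and 9.20 in MEP. The 8 arrays of HSC subsets did not overlap the 9 myeloid arrays, and the GMP arrays were the lowest. The difference was 1.11 ± 0.11 (SE), 2.16-fold, with an adjusted p of 5.88e-06, it was 0.67 in run 2, and the run block gave 0.66 (adjusted p = 0.00961). A second probe, further downstream, followed the lead probe with r of 0.92 over the 17 arrays. It was higher in HSC subsets by 0.79 ± 0.13 (SE) with an adjusted p of 0.00037, by 0.65 in run 2 and by 0.55 with the run block (adjusted p = 0.0286). CMP exceeded GMP by 1.01 ± 0.18 (SE), adjusted p 0.00546, by the lead probe and by 1.04 ± 0.22 (SE), adjusted p 0.0147, by the second, with 1.0 and 1.06 in run 1 and 1.03 and 1.01 in run 2. Between HSC subsets and myeloid populations the upstream probe of Phc1 went the opposite way, while CMP minus GMP was 0.91 (adjusted p = 0.634), the sign of the other probes. It was at 4.33 and 4.16 in LT-HSC, 4.31, 4.36 and 6.15 in ST-HSC and 4.51, 5.32 and 6.17 in MPP. Myeloid arrays had 7.29, 7.25 and 6.32 in CMP, 5.68, 6.54 and 5.89 in GMP, and 6.78, 6.75 and 5.68 in MEP. The unnumbered ST-HSC and MPP arrays of run 2 lay inside the myeloid range, and the arrays of run 3 lay below it. The upstream probe was lower in HSC subsets by 1.63 ± 0.32 (SE), 3.09-fold, adjusted p 0.00119, but higher by 0.19 in run 2 and by 0.07 with the run block (adjusted p = 0.938). Averaging the 3 probes of Phc1 left a difference of 0.09 (adjusted p = 0.504).

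Counted over all 15 probes, HSC subsets exceeded myeloid populations for 5, where 18.2% of all probes did, and were below them for 6, where 23.1% of all probes were. Without both LT-HSC arrays these counts became 7 and 4, where 18.5% and 22.9% of all probes were called, and with run as a block 3 and 1, where 6.86% and 7.64% were. Of the 9 lead probes 4 were higher (Eed, Bmi1, Cbx7 and Phc1) and 2 lower (Ezh1 and Ezh2), where 21.7% of all lead probes were higher and 19.0% lower. LT-HSC and ST-HSC differed for 0 of 15 probes in limma, no other tool being run, where 2.49% of all probes were higher and 0.852% lower in LT-HSC. Without adjustment 1 passed 0.05, the second Cbx8 probe at -1.15 (95% interval -2.23 to -0.07). Without the LT-HSC pool both Cbx8 probes were called lower, where 6.67% of all probes were higher and 4.84% lower, but LT-HSC then holds only the dim unnumbered array, assumed to vary like the other groups. The replicate block, in which the LT-HSC pool has no partner, rests on that array in the same way. It gave both Cbx8 probes as lower and the upstream Suz12 probe as higher in LT-HSC, where 7.86% of all probes were higher and 9.13% lower. ST-HSC against MPP gave 0 higher and 1 lower, the Cbx2 lead probe, where 0.874% and 1.15% of all probes were called. MPP against CMP gave 3 higher (Eed, Bmi1 and Cbx7) and 1 lower, the upstream probe of Suz12, where 5.39% and 6.75% of all probes were called. The run block left none of these 4 called, where 2.16% and 1.57% of all probes were. CMP against GMP gave 3 higher, the lead probe of Cbx2 and 2 probes of Phc1, and 0 lower, where 2.93% and 1.84% of all probes were called. CMP against MEP gave 1 higher, Cbx2, and 0 lower, where 9.43% and 7.24% of all probes were called. The same step gave 4 higher and 1 lower with run as a block, where 12.4% and 13.2% of all probes were called, and those added were Phc1 by its lead probe (0.53, adjusted p = 0.00534) and its second probe (0.66, adjusted p = 0.00198), Cbx8 (1.1, adjusted p = 0.0348) and Eed, lower (-0.43, adjusted p = 0.0348). With the replicate block it gave 4 higher and 2 lower, where 11.6% and 11.7% of all probes were called. GMP against MEP gave 1 higher, Cbx8, and 3 lower, Cbx2, Cbx7 and the upstream probe of Bmi1, where 9.56% and 7.81% of all probes were called, and with run as a block 1 was higher and 8 were lower, where 12.5% and 12.9% of all probes were called in that fit. These steps share arrays, so their counts are not independent of each other.

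**Figure D2:**
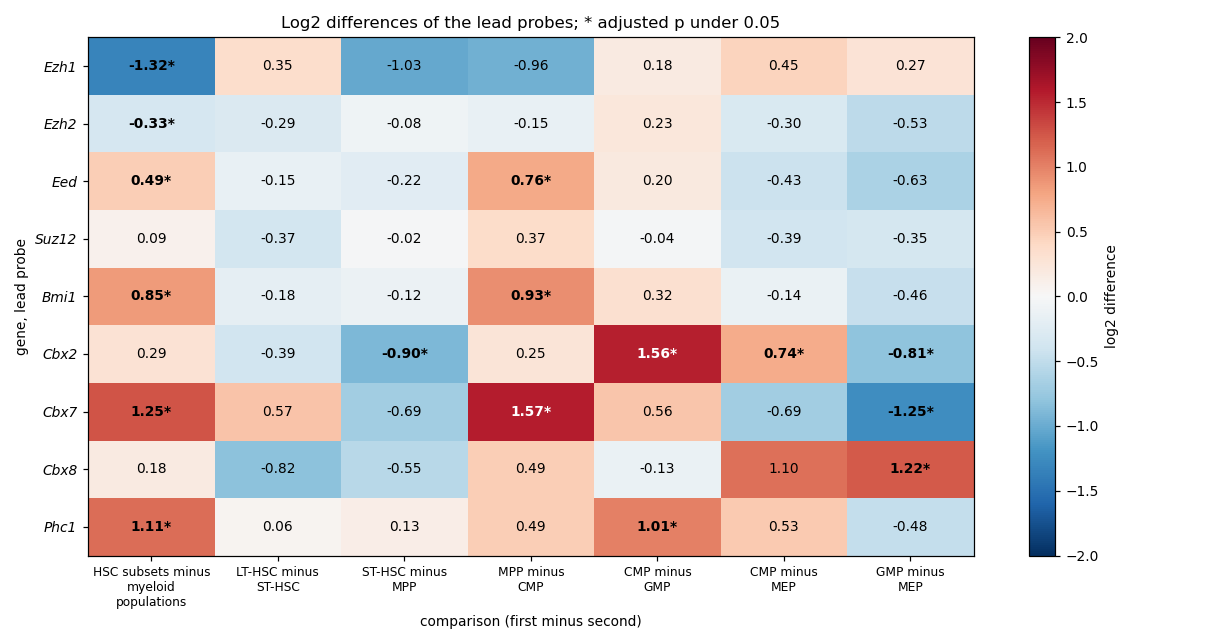
Log2 difference of the lead probe of each gene (rows) in 7 comparisons (columns), first population minus second, with red for higher in the first and an asterisk for an adjusted p under 0.05 in limma. Cbx2 is called in 4 of the single steps, and the comparison of LT-HSC with ST-HSC holds no call.

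The probes of a gene disagreed in a way that went with their position in the transcript, a pattern noticed after the values were seen and given as a description. The correlation over 17 arrays between upstream and lead probe was -0.30 for Suz12, -0.25 for Bmi1, 0.16 for Cbx2 and -0.65 for Phc1. The log2 intensity of the upstream probe minus that of the lead probe was taken on each array, and what is compared is its change between arrays. For Suz12 this averaged -3.73 ± 0.41 (SD, n = 8) over HSC subsets, against -2.58 ± 0.53 (SD, n = 9) over myeloid populations. For Bmi1 it was -4.53 ± 0.35 and -3.11 ± 0.35, with arrays as before. Phc1 had -5.21 ± 1.07 and -2.56 ± 0.56, and Cbx2 -4.48 ± 0.53 and -3.69 ± 0.73. The mean was lower in HSC subsets for each of these genes, but only 1 of 9 myeloid arrays, against 5 of 8 of the HSC subsets, had the upstream probe of Cbx2 well above background, so its myeloid value rests mostly on signal not above it.

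For Suz12, Bmi1 and Phc1 the same differences went with the scanning run. For Suz12 they ran from -2.45 to -2.16 in run 1, -3.88 to -2.97 in run 2 and -4.00 to -2.77 in run 3. For Bmi1 they ran from -3.3 to -2.56, from -4.16 to -3.27 and from -5.21 to -4.34, and for Phc1 from -2.89 to -1.92, from -3.71 to -2.64 and from -6.15 to -4.83. For Cbx2 the ranges of the 3 runs overlapped widely, from -4.36 to -3.0, from -5.06 to -3.15 and from -5.09 to -3.46. Run 2, which held both kinds of population, lay between the others or overlapped them. Within it, HSC subsets minus myeloid populations was -0.57 for Suz12, -0.67 for Bmi1 and -0.48 for Phc1, smaller than over all arrays. Cbx2 is not read this way, since its upstream probe was well above background on only 1 of the 5 arrays there. The 2 probes of Cbx8, which match different transcript records, had 0 there, although over all arrays the other probe minus the lead probe was at -1.81 ± 0.53 (SD, n = 8) and -1.14 ± 0.32 (SD, n = 9), a difference of -0.67.

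This was not particular to Polycomb genes. Over 2234 transcript records with probes at least 1000 bases apart and well above background on at least 9 arrays, the median difference between HSC subsets and myeloid populations in upstream minus downstream intensity was -0.80, and 80.6% of records were lower in HSC subsets. In run 2 the median was -0.38 and the share 80.9%. Centred per record, the median of an array lay between 0.30 and 0.69 in run 1, between -0.57 and -0.31 in run 3, and in run 2 at -0.23 and -0.21 for ST-HSC and MPP against 0.01, 0.28 and 0.20 for CMP, GMP and MEP. The part of RNA quality or labelling in these values was not tested. Every gene here except Suz12, Bmi1, Cbx2, Cbx8 and Phc1 is read by a single probe, so its position effect could not be measured.

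**Figure D3:**
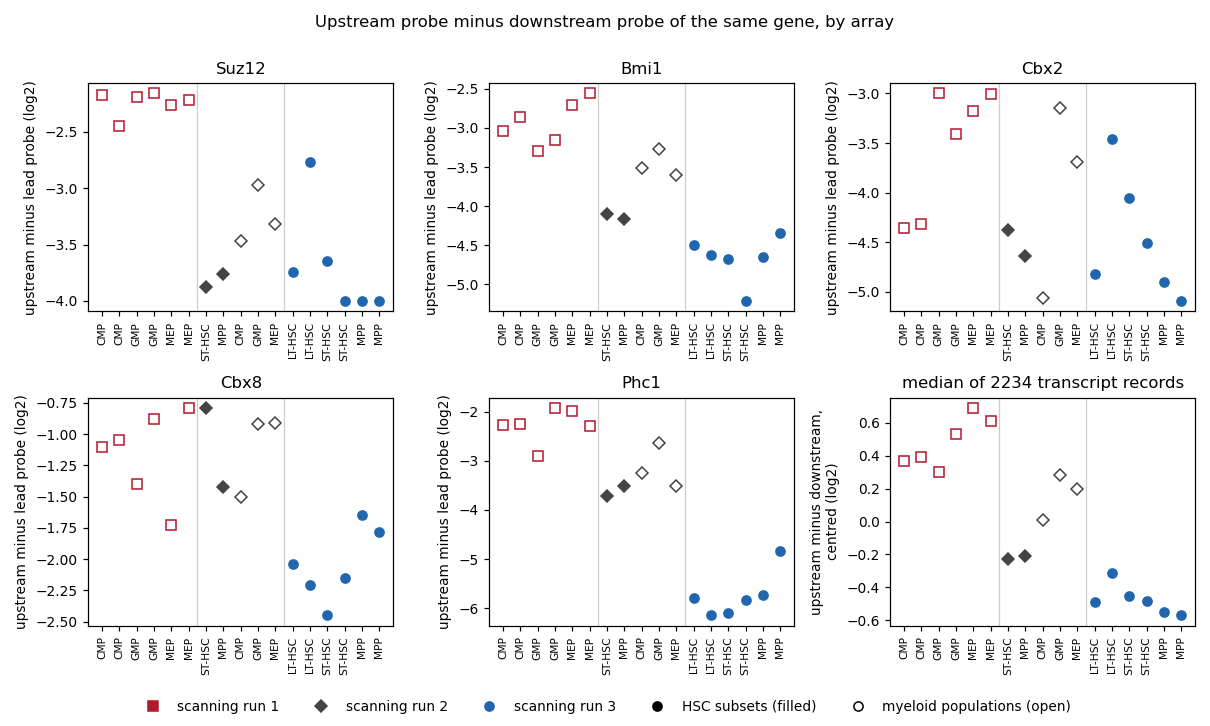
Log2 intensity of the upstream probe minus that of the lead probe of the same gene (vertical axis, own scale per panel) on each array, ordered by scanning run, with filled symbols for HSC subsets and open symbols for myeloid populations. The last panel gives the median over 2234 transcript records after centring each record, from 0.69 at its highest in run 1 to -0.57 at its lowest in run 3.

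**Figure D4:**
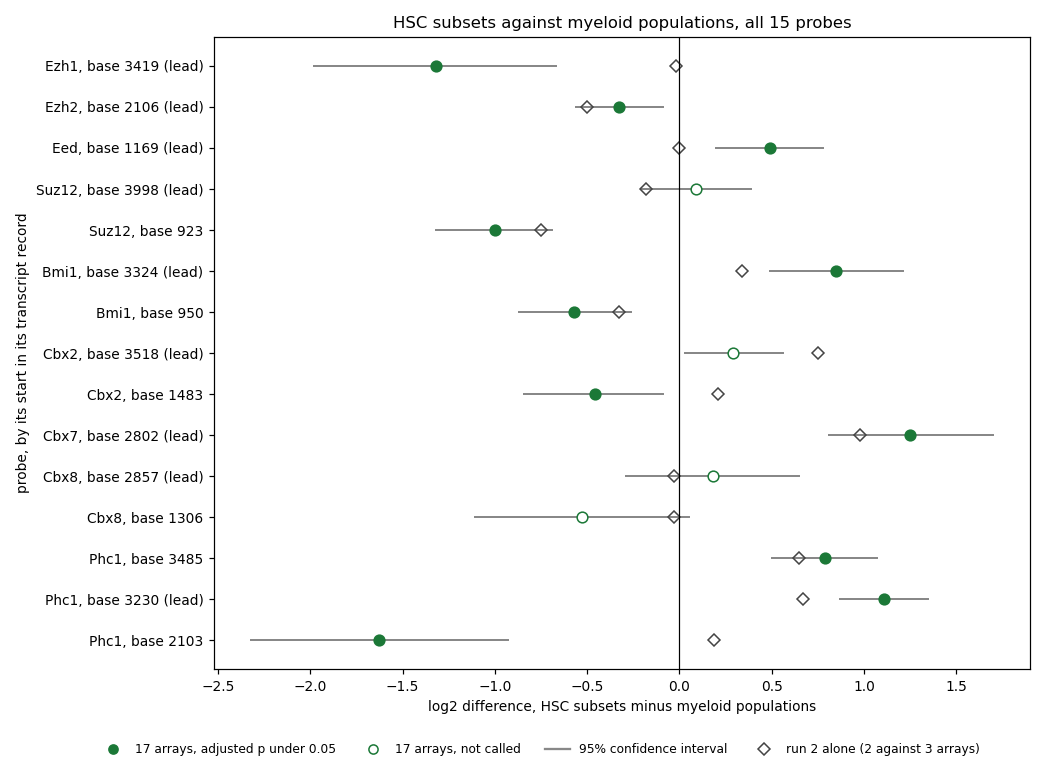
Log2 difference between HSC subsets and myeloid populations for all 15 probes (horizontal axis) with the 95% confidence interval over 17 arrays, and the same difference in run 2 alone as diamonds. Suz12, Bmi1 and Phc1 have called probes upstream of the lead probe that lie below 0, while the lead probes of Bmi1 and Phc1 lie above it, and the run 2 value of Ezh1 sits at -0.02.

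Other genes of the Polycomb system and its opponents were read by lead probe, and all 32 on the list were on the array, with Kdm2b named Fbxl10, Kdm6a named Utx and Kdm6b named Jmjd3 there. Between HSC subsets and myeloid populations 12 were higher and 11 lower, where 21.7% and 19.0% of all lead probes were, with a median difference of 0.09 where all lead probes had 0.04. By group, 3 of 7 PRC2 partners were higher in HSC subsets and 2 lower, 8 of 19 PRC1 partners higher and 6 lower, 0 of 3 deubiquitinase genes higher and 2 lower, and 1 of 3 enzymes of the opposing marks higher and 1 lower. The run block left 3 higher and 3 lower, where 8.16% and 7.26% of all lead probes were called.

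The largest called differences were as follows, by lead probe alone. Mtf2 had 4 probes, Cbx6 3, and Rnf2, L3mbtl2, Scmh1 and Aebp2 2 each, and their other probes are not described here. The lead probe of Aebp2 starts at base 769 of its transcript record, and those of the others at base 2142 or beyond. Mtf2, which guides PRC2 to DNA, ranged from 12.44 to 13.06 with a median of 12.78 in HSC subsets and from 10.98 to 12.41 with a median of 11.64 on the 8 myeloid arrays with a value. It was higher by 1.12 ± 0.16 (SE, adjusted p = 0.000114), and by 0.27 with the run block (adjusted p = 0.328). Rnf2, the RING enzyme of PRC1, was higher by 1.09 ± 0.14 (SE, adjusted p = 4.81e-05), with 0.69 in run 2 and an adjusted p of 0.0512 with the run block. Cbx6, a further chromodomain gene, was higher by 1.02 ± 0.15 (SE, adjusted p = 0.000135), with 0.77 in run 2 and 0.78 with the run block (adjusted p = 0.0325). L3mbtl2, of a PRC1 variant, ranged from 6.16 to 7.78 with a median of 6.89 in HSC subsets and from 8.65 to 10.43 with a median of 9.5 in myeloid populations. These ranges did not overlap, and the difference of -2.56 ± 0.26 (SE, adjusted p = 7.44e-06) was -1.32 in run 2 and -1.27 with the run block (adjusted p = 0.0184). Scmh1 was lower by 1.98 but by only 0.34 in run 2, and Aebp2, a PRC2 cofactor, was lower by 1.16 and by 0.70 in run 2, and neither passed with the run block (adjusted p = 0.354 and 0.103).

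Between GMP and MEP, where run 1 and run 2 each held both populations (on different slides in run 2), 3 of the 32 genes were higher in GMP and 6 lower, where 10.3% and 8.26% of all lead probes were, and those named here had the same sign in both runs. Phf19, which links PRC2 to chromatin, was higher by 1.03 (adjusted p = 0.00111) and Pcgf5, a relative of Bmi1, by 0.98 (adjusted p = 0.00177). Pcgf6, a further relative, was at 8.20, 8.57 and 8.62 in GMP and 9.76, 9.95 and 10.03 in MEP, lower by 1.45 (adjusted p = 0.00198). Scml2 was lower in GMP by 1.43 (adjusted p = 4.53e-05), and Cbx6 by 0.96 (adjusted p = 0.0163), with 0.83 in run 1 and 1.22 in run 2. By lead probe Cbx6 and Cbx7 were thus lower in GMP than in MEP, and Cbx8 higher. Pcgf6 had 2 probes and Scml2 3, of which only the lead probe is given.

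The list also held 5 genes known as Polycomb targets in blood or other cells. Cdkn2a, the cell cycle inhibitor locus silenced by Bmi1, stood at 1.67 to 1.93, and 0 of 17 arrays had it well above background. Hoxa9, a homeobox gene of immature blood cells, was between 8.81 and 10.28 with a median of 9.15 in HSC subsets, and between 6.64 and 8.86 with a median of 7.70 in myeloid populations. It was higher in HSC subsets by 1.65 (adjusted p = 1.04e-07 in limma). Run is mostly confounded with this comparison, and the run 2 and run block values of Hoxa9 are not given. Cdkn2b and Pax5 were well above background on 3 and 4 arrays of HSC subsets and on 0 myeloid arrays, and Ebf1 on 0 of either, so no fold is given for them.

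The level of Ezh2 went with that of the 16 proliferation genes on the list. Their mean was 12.14 in LT-HSC, 12.35 in ST-HSC and 12.22 in MPP. It was 12.53 in CMP, 12.69 in GMP and 12.98 in MEP. Over 17 arrays the correlation with that mean was 0.71 for Ezh2, 0.42 for Ezh1, 0.16 for Suz12 and -0.30 for Eed. It was -0.34 for Cbx2, -0.35 for Cbx8, -0.50 for Cbx7, -0.55 for Bmi1 and -0.77 for Phc1. Run 2, with 5 arrays, is too small for a correlation of its own. GMP was second in the proliferation genes while its Ezh2, at 10.82 ± 0.04 (SD, n = 3), was below that of CMP, MPP and MEP. These correlations share the arrays, their runs and their normalization, and are descriptions.

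Among the members themselves, the lead probes of Bmi1 and Cbx7 had r of 0.87 over the 17 arrays, Eed and Bmi1 0.84, Bmi1 and Phc1 0.81, and Eed and Cbx7 0.77. Ezh1 ran against Phc1 at -0.72 and against Bmi1 at -0.70, while Ezh1 and Ezh2 had 0.14 and Cbx7 and Cbx8 0.03. Among 15456 other gene names well above background on at least 9 arrays, Cbx6 was the most like Cbx7, with r of 0.972. The gene most like Bmi1 was Zmym2 (0.974), that most like Eed was Kin (0.947), and that most like Phc1 was AW122171 (0.969). For Ezh1 it was D2hgdh (0.972), for Cbx2 it was Rgl1 (0.934), and for Cbx8 it was 2810449D17Rik (0.938). All these values are over the same 17 arrays, in which population and scanning run are partly one.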

How the data were processed

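The deposited scanner files give the Cy3 intensity of each spot of single-color Agilent whole mouse genome arrays. Feature Extraction had corrected it for background and spatial trend. The 6 arrays of run 1 had version 9.5.3.1 and the other 11 had 10.2.1.3. That version therefore goes with run in a comparison of HSC subsets with myeloid populations. A second table of the authors, deposited as log2 values after quantile normalization in limma, served as an alternative. Here log2 intensities of all spots were quantile normalized over the 17 arrays, and 1639 control spots and spots with an outlier mark were left out, which left 161 probe values missing, none of a member. Population means were fitted to 41174 probes with lmFit and eBayes (limma 3.58.1, R 4.3.3), with Benjamini-Hochberg adjustment over all probes. HSC subsets were the mean of 3 population means, and likewise the myeloid populations. Samples were grouped by title. The number of arrays limits the precision, and no depth applies. Pairs of genes were compared by exact permutation of arrays. The fit was also run on simulated arrays with independent noise. These held no effect of run, slide or probe position, so the simulation could not check for them.

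The 9 members and the lists of 32 other Polycomb genes, 5 targets, 16 proliferation genes and cell type markers were chosen with earlier results of these data known. Every member probe is described, and of the other genes the 3 largest called changes each way in 2 comparisons are named, except 1 that is not reported here. Cebpe was not found among the array's gene names. The alternatives were 75th-percentile scaling, the authors' table, normexp with an offset of 50, a filter on dim probes, run, slide and replicate number as blocks, the mean of all probes, and arrays left out. The miR arrays were not analysed here.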

Additional observations from a re-analysis of the deposited data

Results flagged for a closer look

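In 30 sets, each 1 probe over the arrays of HSC subsets or of myeloid populations, 3 held an array that stood far from the others by Dixon's criterion, which chance alone meets in about 1 in 20 groups. The upstream Suz12 probe stood at 7.45 on the unnumbered LT-HSC array, the highest of the 8 arrays of HSC subsets, with the nearest at 6.91. The second Cbx8 probe stood at 4.17 on the same array, where it was not well above background, the lowest of the 8, with the nearest at 5.79. That array was the dim one. The second Cbx8 probe also stood at 4.93 on MEP 1, the lowest of the 9 myeloid arrays, with the nearest at 6.12. The cause was not tested.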

How the results depend on the processing

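Of the 16 called differences of lead probes, 10 were still called with scanning run as a block, 11 with the mean of all probes, 12 with 75th-percentile scaling and with the replicate block, 13 with slide as a random block, 14 with normexp, 15 with the authors' table and without both LT-HSC arrays, 16 with the filter on dim probes, and 11 to 16 with 1 array left out. Among lead probes and gene pairs, the sign turned in 4 results that passed the threshold as reported or under the alternative. With run as a block Ezh1 minus Ezh2 turned, at 0.48 and in run 2 alone. So did HSC subsets against myeloid populations for Ezh1, at 0.10, and for Eed, at -0.15. Suz12 turned with the mean of its probes, at -0.46. The called upstream probes of Cbx2 and Phc1 also turned in that comparison with run as a block, at 0.12 and 0.07. Differences that passed under neither setting turned as well, such as Suz12 and Cbx8 with run as a block. The dim filter kept 24658 probes and all 15 of the members.

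Counts of called member probes moved by over 1.5 times as follows, and the cause was not tested. With run as a block, the F-test called 7, HSC subsets against myeloid populations 4, MPP against CMP 0, CMP against MEP 5 and GMP against MEP 9. With the mean of all probes, which leaves 9 genes in place of 15 probes, HSC subsets against myeloid populations gave 5, ST-HSC against MPP 0, MPP against CMP 2 and CMP against MEP 2. With 75th-percentile scaling ST-HSC against MPP gave 0, MPP against CMP 1 and CMP against MEP 3. With slide as a random block (correlation 0.36) MPP against CMP gave 1, CMP against MEP 4 and GMP against MEP 7. CMP against MEP gave 3 with normexp and with the dim filter, 4 with the authors' table and 2 without both LT-HSC arrays, and GMP against MEP gave 7 with the authors' table.

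With 1 array left out, the F-test called 9 to 13, HSC subsets against myeloid populations 10 to 11, LT-HSC against ST-HSC 0 to 2, ST-HSC against MPP 0 to 2, MPP against CMP 0 to 6, CMP against GMP 2 to 3, CMP against MEP 0 to 3 and GMP against MEP 1 to 6. Ezh1 minus Ezh2 ran from -1.23 to -0.79, and Cbx7 minus Cbx8 from 0.80 to 1.18. Ezh1 minus Ezh2 was -0.39 with 75th-percentile scaling, -0.25 with normexp, -0.54 with the authors' table and -1.08 without both LT-HSC arrays, none of them past the threshold. Cbx7 minus Cbx8 was 1.3 with the mean of all probes and passed it. With 75th-percentile scaling, normexp, the authors' table and without both LT-HSC arrays it did not.

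The replicate numbers were not taken to pair the samples, since 14 pairs of arrays with the same number had correlations of their deviations from -0.06 to 0.52. The 8 pairs within a run had 0.13 to 0.52, while the 6 across runs had -0.06 to 0.01. The replicate block gave 3 calls in LT-HSC against ST-HSC, 0 in ST-HSC against MPP, 2 in MPP against CMP, 6 in CMP against MEP and 7 in GMP against MEP. Of all probes, that block called 1.26% higher and 1.79% lower in ST-HSC against MPP, 5.48% each way in MPP against CMP and 11.5% each way in GMP against MEP. It put Ezh1 minus Ezh2 at -0.81 (exact permutation within blocks, adjusted p = 0.175). Calls of lead probes lost with it include Eed between HSC subsets and myeloid populations, at 0.32 (adjusted p = 0.186), and Eed and Bmi1 between MPP and CMP, at 0.62 (adjusted p = 0.142) and 0.79 (adjusted p = 0.0999).

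Without both LT-HSC arrays LT-HSC against ST-HSC has no value, and the pairs of genes were not run with the slide block or the dim filter. The probes with low signal, above all the upstream probe of Cbx2, limit what can be read. With 2 LT-HSC arrays, 1 of them dim, the comparison of LT-HSC with ST-HSC had wide intervals.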
